A study of Homo sapiens with 4 samples.

Results

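The aminoacyl-tRNA synthetases of human cells were described across 2 gastric cancer cell lines, each with and without the cardiac glycoside periplocymarin. The members were taken by name: 19 cytosolic synthetases, 16 mitochondrial synthetases and 3 scaffold proteins (AIMP1, AIMP2 and EEF1E1), which makes 38 of the 62710 genes in the table. All 38 were found.

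A synthetase joins 1 kind of amino acid to its tRNAs, and the ribosome then reads the charged tRNA. Cells keep a cytosolic set for ribosomes in the cytoplasm and a nuclear-encoded mitochondrial set for the ribosomes inside mitochondria. GARS1 and KARS1 serve both places from 1 gene. Several cytosolic enzymes are held with AIMP1, AIMP2 and EEF1E1 in the multi-synthetase complex. Transcription of many cytosolic synthetases is raised by ATF4, the transcription factor of the amino acid response.

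MKN45 is a poorly differentiated gastric adenocarcinoma line, and HGC27 was grown from an undifferentiated gastric cancer that had spread to a lymph node. Cells of each line were kept in RPMI-1640 with 10% fetal bovine serum and exposed for 24 h to 0.3 µM periplocymarin or to 0.1% DMSO, the vehicle. Periplocymarin belongs to the plant steroids that block the Na,K-ATPase, the sodium and potassium pump of the cell membrane. There was 1 library per line and treatment, 4 in all, so differences within 1 line come without replicates or p-values. Nothing in the labels gives a batch, and both lines are treated as the 2 units of each arm.

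Values are FPKM, fragments or reads scaled by gene length and by a size for each library. Between 24822517 and 36321186 reads per library were recovered from them. The sizes that the values imply were 1.209 and 0.949 times the recovered reads in vehicle and treated HGC27. In MKN45 they were 1.015 and 0.866 times. This scaling places treated values higher against vehicle than library totals alone would, and it enters every difference on the deposited values. A difference within a line is the treated minus the vehicle value of log2(FPKM + 1), which understates the change of low genes, and it was read only for genes whose 2 libraries averaged 1 FPKM or more. A difference of 1 or more on that scale is called 2-fold here. The fitted difference over both lines comes from limma with the line as a block, and its adjusted p (Benjamini-Hochberg) runs over the 12374 genes tested, with 0.05 as the threshold. Each ± gives the moderated standard error of limma, built on 8.59 prior and 1 residual degrees of freedom. It thus rests mostly on the spread between the lines over all genes of like level, and less on the gene's own. The p speaks of these lines only and holds no spread between replicate libraries. Intervals given for a ratio of reads are 95% Clopper-Pearson and cover counting error alone. These are bulk libraries, in which fewer cells of a kind and less RNA per cell cannot be told apart.

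The labelled lines kept their own marker profiles. Of 8 epithelial markers, 7 stood at 1 FPKM or more in both MKN45 libraries and 0 in HGC27. Mesenchymal markers summed to 649 and 879 FPKM in HGC27 and to 1.17 and 0.589 FPKM in MKN45. Markers of blood and endothelium summed to 0.357 FPKM or less in every library.

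As a set, cytosolic synthetase mRNAs were far more abundant than mitochondrial ones in every library. Single pairs went the other way at the deposited lengths. HARS1 was 0.645 and 0.552 times HARS2 in vehicle and treated HGC27, and 0.728 and 0.449 times in MKN45. CARS1, IARS1 and YARS1 were below their mitochondrial partners in some libraries. In the vehicle libraries the 19 cytosolic members had a median of 50.6 FPKM in HGC27 and 38.8 FPKM in MKN45, against 4.64 and 5.15 FPKM for the 16 mitochondrial members. The highest cytosolic gene was SARS1, the seryl enzyme, in vehicle HGC27 (114 FPKM) and TARS1, the threonyl enzyme, in vehicle MKN45 (189 FPKM). The highest mitochondrial gene was IARS2, the isoleucyl enzyme, at 35.1 and 30.2 FPKM. The lowest of each set were the valyl enzymes. VARS1 was at 1.88 FPKM in vehicle and 1.45 FPKM in treated HGC27, and at 1.18 and 0.842 FPKM in MKN45, while VARS2 was listed at 0 in 3 libraries and at 0.0168 FPKM in vehicle MKN45, so VARS2 was not tested.

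**Figure D1:**
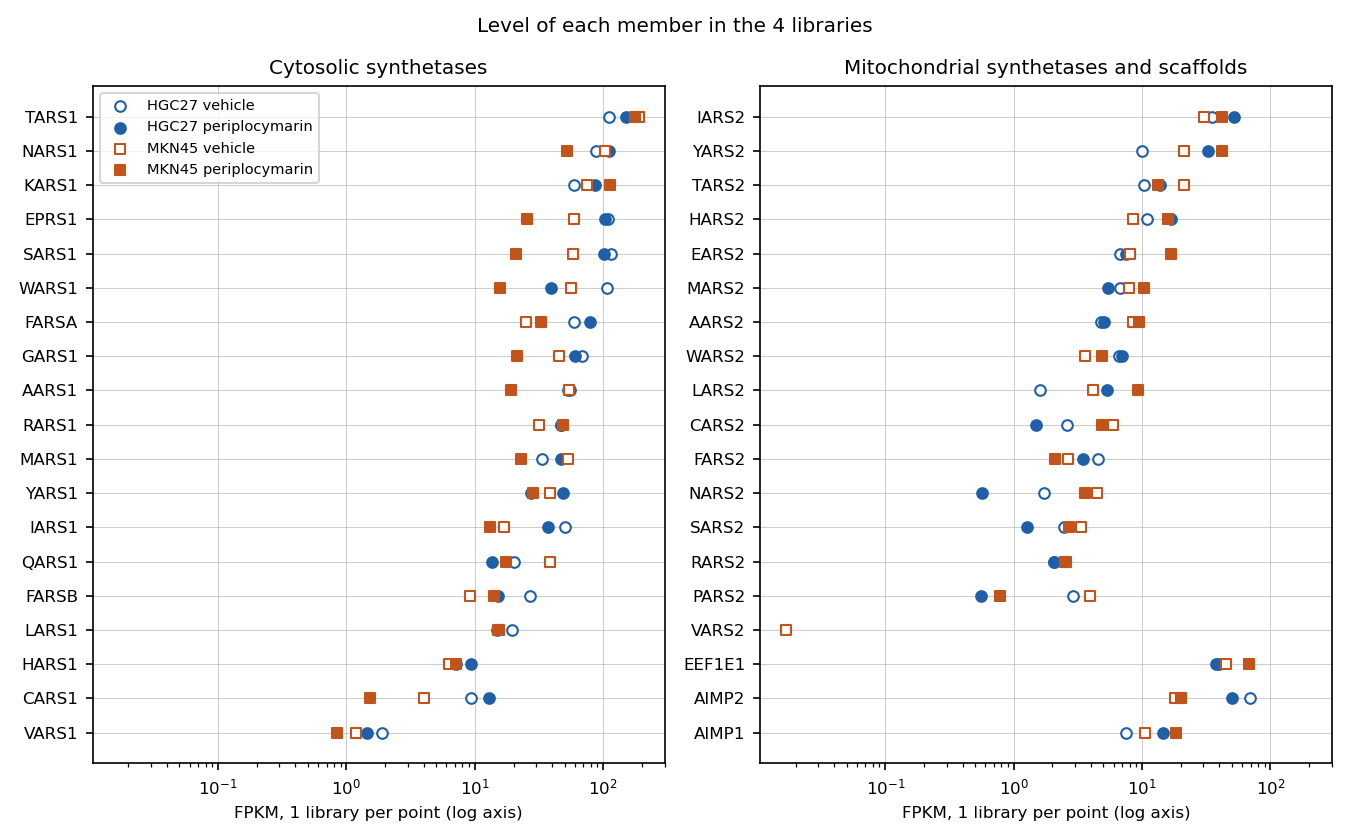
FPKM of each gene on a log axis, 1 point per library (circles HGC27, squares MKN45, open for vehicle and filled for periplocymarin), with cytosolic synthetases in the left panel and mitochondrial synthetases and scaffold proteins in the right. Cytosolic members lie mostly above 10 FPKM and mitochondrial members mostly below it, and VARS2 has a point only in vehicle MKN45 because it was listed at 0 in the other libraries.

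Both valyl genes lie in the major histocompatibility region of chromosome 6, and their neighbours were low too. Of 54 protein-coding genes within 250 kb of VARS1, 1 reached a mean of 10 FPKM (1.85%), and of 20 around VARS2, 2 did (10%). Among all 19855 protein-coding genes 21.3% did. The part of the region in the low valyl values was not tested.

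Levels between genes depend on the gene lengths behind the deposited values. The lengths recovered from the values exceeded the GENCODE 29 exon length 6.93-fold for RARS2, 5.19-fold for NARS2, 3.03-fold for IARS1 and 2.78-fold for AIMP1. At the GENCODE 29 length vehicle IARS1 would stand at 153 FPKM in HGC27, above its deposited 50.6 FPKM, and AARS1 at 125 FPKM in place of 54.7 FPKM. HARS1 would be at 12.8 and 16.7 FPKM in vehicle and treated HGC27, with HARS2 at 11 and 16.7 FPKM. In MKN45 HARS1 would be at 11.2 and 12.8 FPKM, with HARS2 at 8.53 and 15.7 FPKM. HARS1 would thus be below HARS2 in treated MKN45 only. In vehicle MKN45 IARS1 would be at 51.4 FPKM, above IARS2 at 30 FPKM. The lengths are the same in all libraries, so FPKM ratios between libraries do not depend on them, but differences of log2(FPKM + 1) do because of the added 1. With members at the GENCODE 29 length, 2 members changed their side of the 2-fold mark. NARS2 in HGC27 moved from -0.79 to -1.33, and EARS2 in MKN45, at 0.99 as deposited, just reached the mark. The fit over all genes was not repeated at those lengths.

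After periplocymarin, 1 of 19 cytosolic synthetases fell over both lines and 0 rose, while among mitochondrial synthetases 2 rose and 1 fell. Among all genes tested 3.49% rose and 3.29% fell, and 4 of the 37 members tested were called against 6.78% of all genes in either direction. At an unadjusted p under 0.05 the cytosolic counts were 3 lower and 0 higher, and the mitochondrial counts 1 lower and 3 higher. No share over all genes is given at that unadjusted threshold, so no excess is read from these counts. At the adjusted threshold limma-voom on the recovered reads made the same numbers of calls in each set. The median fitted difference was -0.28 for cytosolic members, 0.05 for mitochondrial members and 0.06 for all genes tested.

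**Figure D2:**
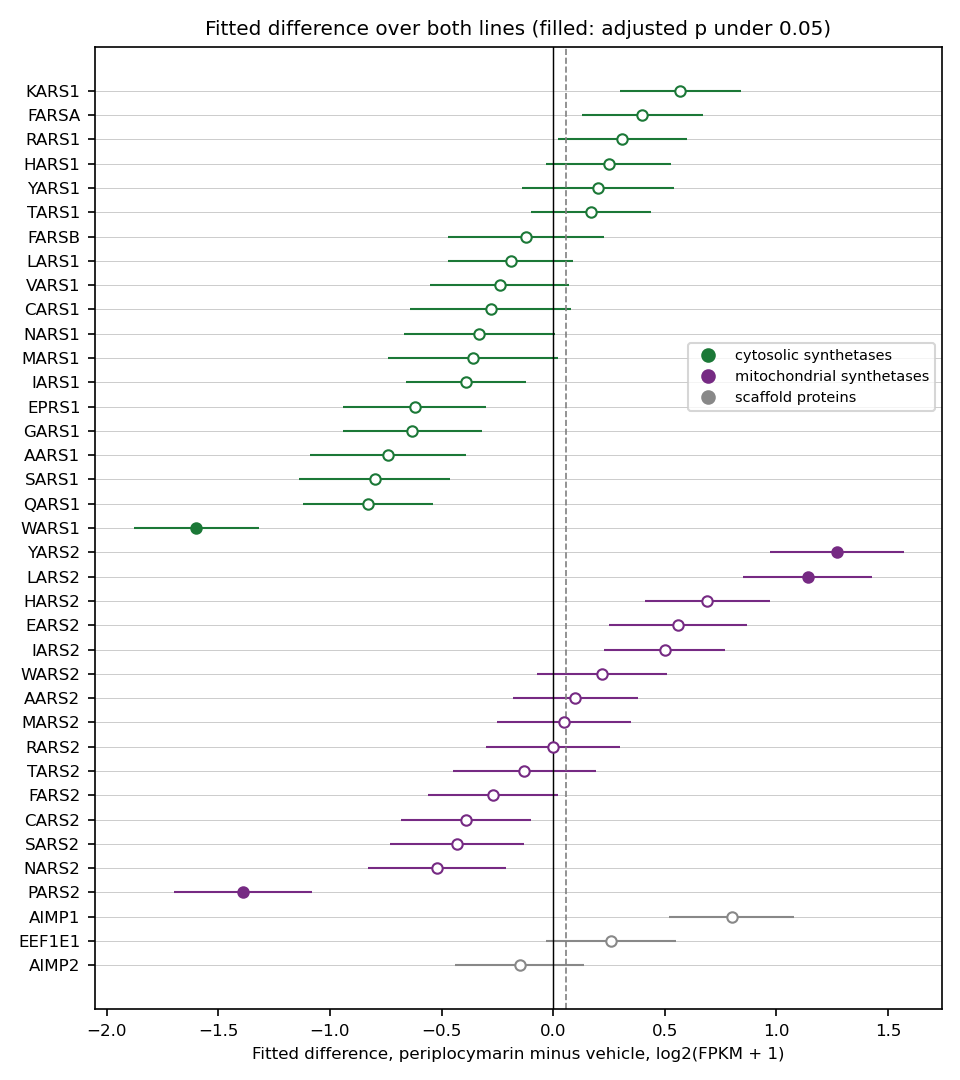
Fitted difference over both lines (periplocymarin minus vehicle, log2(FPKM + 1), bars are moderated SE) for the 37 members tested, with the median of all genes tested, 0.06, as a dashed line. The 4 filled points are WARS1 and PARS2 on the left and YARS2 and LARS2 on the right.

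WARS1, the cytosolic tryptophanyl enzyme, fell. It stood at 107 FPKM in vehicle and 39.1 FPKM in treated HGC27, and at 56.2 and 15.8 FPKM in MKN45. Both treated libraries were below both vehicle libraries. No share of all genes that separate in this way is given, so such an order, here and below, only describes the values. FPKM was 2.72-fold lower in HGC27 and 3.56-fold lower in MKN45. The log2 ratios were -1.44 (interval -1.49 to -1.40) and -1.83 (-1.90 to -1.77). The fitted difference was -1.60 ± 0.28 (limma adjusted p = 0.0242).

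WARS1 is known as a gene strongly induced by interferon gamma. Of 20 genes listed for the interferon gamma response only 7 were expressed enough to be tested, of which 1 fell and 0 rose. The 1 that fell was UBE2L6, the conjugating enzyme for ISG15, from 10.4 to 1.52 FPKM with treatment in HGC27, and in MKN45 from 10.7 to 2.28 FPKM (-2.01 ± 0.29, limma adjusted p = 0.017). The median fitted difference of the 7 was -0.20, against 0.06 for all genes tested, of which 3.29% fell.

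Within each line the whole cytosolic set was counted. In MKN45, 7 of 19 were at least 2-fold lower and 0 at least 2-fold higher, with a median difference of -0.42 and 14 of 19 below 0. Among all 11895 genes measured in that line 8.94% were 2-fold lower, 8.21% were 2-fold higher, 46.5% were below 0 and the median was 0.07. In HGC27 only WARS1 was at least 2-fold lower and 0 were higher, with a median of -0.04 and 10 of 19 below 0. There the shares over all 11821 genes measured were 10.4% lower, 9.72% higher and 44.6% below 0, and the median was 0.11. The cytosolic medians stayed below 0 with quantile normalization (-0.55 in HGC27 and -0.76 in MKN45), with libraries rescaled to the same sum (-0.20 and -0.31) and with library totals alone (-0.39 and -0.64).

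Besides WARS1, the MKN45 group held AARS1, EPRS1, GARS1, MARS1, QARS1 and SARS1. AARS1, the alanyl enzyme, was at 54.7 FPKM in vehicle and 53.1 FPKM in treated HGC27, and at 53.8 and 19.1 FPKM in MKN45. SARS1 was at 114 FPKM in vehicle and 101 FPKM in treated HGC27, and at 58.0 and 20.9 FPKM in MKN45. EPRS1, which charges both glutamate and proline tRNAs, was at 109 and 104 FPKM and at 58.9 and 25.5 FPKM. In each of these the HGC27 libraries lay close together and the treated MKN45 library was the lowest of the 4. GARS1, the glycyl enzyme, was at 68.3 FPKM in vehicle and 60.0 FPKM in treated HGC27, and at 45.6 and 21.2 FPKM in MKN45. QARS1, the glutaminyl enzyme, was lower after treatment in both lines, from 20.2 to 13.5 FPKM and from 38.8 to 17.6 FPKM. The 2 treated QARS1 values were the lowest of the 4.

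None of these 6 genes passed over both lines. The fitted differences were -0.83 ± 0.29 for QARS1 (limma adjusted p = 0.102), -0.80 ± 0.34 for SARS1 (0.154) and -0.74 ± 0.35 for AARS1 (0.198). EPRS1 was at -0.62 ± 0.32, GARS1 at -0.63 ± 0.31 and MARS1 at -0.36 ± 0.38 (limma adjusted p = 0.237, 0.21 and 0.56). QARS1 and SARS1 passed with quantile normalization, with library totals alone and at a floor of 10 FPKM. GARS1 passed with quantile normalization and with library totals alone (limma adjusted p = 0.0449 and 0.0443), and AARS1 (0.0386) and EPRS1 (0.0496) with library totals alone. MARS1 passed in no alternative.

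At the other end, KARS1, the lysyl enzyme, had the highest fitted cytosolic difference. It went from 58.9 to 86.7 FPKM with treatment in HGC27, and in MKN45 from 74.1 to 112 FPKM (0.57 ± 0.27, limma adjusted p = 0.195). FARSA, the alpha subunit of the phenylalanyl enzyme, was at 58.8 and 78.9 FPKM and at 24.9 and 32.8 FPKM (0.40 ± 0.27, adjusted p = 0.355). RARS1, the arginyl enzyme, was at 46.7 FPKM in vehicle and 46.9 FPKM in treated HGC27, and at 31.8 and 49.0 FPKM in MKN45 (0.31 ± 0.29, adjusted p = 0.508). None of these passed, and the last 2 turned to -0.08 and -0.16 with quantile normalization.

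Differences also move with the level of a gene in these libraries, and cytosolic synthetases are abundant. The median difference over all genes of 1 to 3 FPKM was -0.35 in HGC27 and -0.29 in MKN45, while genes of 30 to 100 FPKM had 0.64 and 0.44. Against the median of genes in the same range of level, 15 of 19 cytosolic members were lower in HGC27 and 13 of 19 in MKN45. Of the mitochondrial members 8 of 15 were lower in HGC27 and 5 of 15 in MKN45.

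Cytosolic members were then sorted by a list of 13 synthetase genes commonly given as ATF4 targets. It was compiled from general knowledge, with earlier results of these data known. In MKN45 all 13 were below 0, with a median of -0.99 and a range from -1.77 to -0.03, and 6 of them were at least 2-fold lower. The other 6 cytosolic genes (FARSA, FARSB, HARS1, KARS1, QARS1 and RARS1) had a median of 0.47, with QARS1 alone below 0. In HGC27 the listed genes had a median of -0.06, with 8 of 13 below 0, and the others of 0.17. Over both lines WARS1 was the 1 listed gene that fell, and the median fitted difference was -0.36 for the listed and 0.28 for the other cytosolic genes. The gap between the lists was not tested.

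The promoters of these genes were read for the letters of the element that ATF4 binds with C/EBP proteins, TGATGNAA, or TTNCATCA when it lies on the other strand. RefSeq windows from 250 bases before to 50 after the start (GRCh38.p14) were at hand for 33 of the 38 genes. Of 10 listed cytosolic genes with a window 7 held the letters, of 6 other cytosolic genes 0, of 14 mitochondrial genes 1 and of 3 scaffold genes 0. Whether genes came to be listed because of such elements was not examined, so these counts by list are no independent evidence. Among 9126 genes tested with a window 2.73% held them, and among all 35116 windows 3.62%. The 8 stretches are printed because they are all the matches found among the members, 7 in listed cytosolic genes and 1 in YARS2. Each is read 5′ to 3′ along its gene's strand, the capitals mark the match, and the coordinates are those of the 30 bases shown:
AARS1, chr16:70289675-70289704, minus strand: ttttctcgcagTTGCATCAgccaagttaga
CARS1, chr11:3057407-3057436, minus strand: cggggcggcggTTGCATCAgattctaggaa
GARS1, chr7:30594834-30594863, plus strand: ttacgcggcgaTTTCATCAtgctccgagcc
IARS1, chr9:92293692-92293721, minus strand: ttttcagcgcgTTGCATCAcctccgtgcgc
MARS1, chr12:57488053-57488082, plus strand: gccggttccggTTGCATCAgcgagggattc
NARS1, chr18:57621804-57621833, minus strand: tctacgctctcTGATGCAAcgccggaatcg
TARS1, chr5:33440956-33440985, plus strand: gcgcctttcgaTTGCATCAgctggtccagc
YARS2, chr12:32756076-32756105, minus strand: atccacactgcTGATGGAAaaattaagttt

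In 6 of the 7 cytosolic stretches the 8 letters read as TTGCATCA or its reverse complement TGATGCAA, and GARS1 has TTTCATCA. The match begins 2 bases before the start in CARS1, 4 before in MARS1, 13 before in IARS1 and 33 before in GARS1, 2 after it in TARS1 and 14 after in NARS1. In AARS1 and YARS2 it lies farther out, 187 and 197 bases before. In MKN45 all 7 cytosolic genes with the letters were below 0: AARS1 at -1.45, MARS1 at -1.19, GARS1 at -1.07, CARS1 at -0.99, NARS1 at -0.98, IARS1 at -0.34 and TARS1 at -0.09. The mitochondrial YARS2 was at 0.94. In HGC27 CARS1, MARS1, NARS1 and TARS1 were above 0 and AARS1, GARS1 and IARS1 below. EPRS1, QARS1, SARS1 and WARS1, also at least 2-fold lower in MKN45, have no match in their windows. A match is a description of letters, and binding was not measured.

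In 1 of the WARS1 windows another set of letters, the core of the interferon-stimulated response element, begins 55 bases before the start. It was looked for on both strands after the WARS1 sequence had been seen, and it is shown because WARS1 is the cytosolic gene that fell:
WARS1, chr14:100375383-100375412, minus strand: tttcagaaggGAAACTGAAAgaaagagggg
The same core, with any bases at its 2 middle positions, was found in 3 of 45 member windows (6.67%), from WARS1 and EARS2. It was in 2.65% of windows of genes tested and 3.57% of all windows. The EARS2 windows overlap, so the same stretch was counted in each, and by gene 2 of 33 members held the core. Because the WARS1 match was seen first, the member share was raised in advance and is no evidence of an excess.

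Mitochondrial synthetases showed no common direction. In HGC27 9 of 15 were above 0 (median 0.07) and in MKN45 8 of 15 (median 0.14), against 55.4% and 53.5% of all genes and medians of 0.11 and 0.07. The signs of these medians depend on the scaling, since HGC27 gave -0.08 with libraries rescaled to the same sum and -0.23 with library totals alone, and MKN45 gave -0.06 with library totals alone. At least 2-fold higher were 2 genes in HGC27 and 1 in MKN45, and 1 was at least 2-fold lower in each. All genes gave 9.72% and 8.21% higher and 10.4% and 8.94% lower.

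YARS2, the mitochondrial tyrosyl enzyme, rose. It went from 10.0 to 32.5 FPKM with treatment in HGC27, and in MKN45 from 21.3 to 41.8 FPKM. Both treated libraries lay above both vehicle libraries. FPKM was 3.24-fold and 1.96-fold higher, log2 ratios of 1.70 (interval 1.57 to 1.83) and 0.97 (0.88 to 1.06). The fitted difference was 1.27 ± 0.30 (limma adjusted p = 0.0383), and 0.91 with an adjusted p of 0.0845 under quantile normalization.

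LARS2, the mitochondrial leucyl enzyme, rose as well. It went from 1.61 to 5.33 FPKM with treatment in HGC27, and in MKN45 from 4.11 to 9.24 FPKM, so again no vehicle library reached a treated one. The ratio was 3.30-fold in HGC27 and 2.25-fold in MKN45. The fitted difference was 1.14 ± 0.29 (limma adjusted p = 0.0486). With library totals alone it was 0.92 and the adjusted p 0.0584.

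PARS2, the mitochondrial prolyl enzyme, fell. It went from 2.88 to 0.559 FPKM with treatment in HGC27, and in MKN45 from 3.95 to 0.783 FPKM, and the treated libraries were both below 1 FPKM. These values rest on 219 and 31 reads in HGC27 and on 343 and 44 reads in MKN45. FPKM was 5.16-fold and 5.04-fold lower, log2 ratios of -2.37 (interval -2.96 to -1.82) and -2.33 (-2.82 to -1.88). These are the widest ratios of any member measured in either line. The fitted difference was -1.39 ± 0.31 (limma adjusted p = 0.0338), and -1.09 with an adjusted p of 0.0709 under quantile normalization. The cytosolic prolyl activity is carried by EPRS1, whose values are given above.

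The other mitochondrial members did not pass. HARS2, the histidyl enzyme, was higher in both lines, from 11 to 16.8 FPKM and from 8.57 to 15.8 FPKM (0.69 ± 0.28, limma adjusted p = 0.146). NARS2, the asparaginyl enzyme, was at 1.72 FPKM in vehicle and 0.570 FPKM in treated HGC27, and at 4.42 and 3.58 FPKM in MKN45 (-0.52 ± 0.31, adjusted p = 0.302). SARS2, the seryl enzyme, was at 2.47 and 1.26 FPKM and at 3.35 and 2.68 FPKM (-0.43 ± 0.30, adjusted p = 0.378). In both of these the treated library was the lower in each line, by more in HGC27. EARS2, the glutamyl enzyme, was at 6.77 FPKM in vehicle and 7.51 FPKM in treated HGC27, and at 7.99 and 16.8 FPKM in MKN45, so the treated MKN45 library stood apart (0.56 ± 0.31, adjusted p = 0.266). TARS2, the threonyl enzyme, was at 10.4 FPKM in vehicle and 13.8 FPKM in treated HGC27, and at 21.2 and 13.3 FPKM in MKN45 (-0.13 ± 0.32, adjusted p = 0.819). The remaining 7 tested (AARS2, CARS2, FARS2, IARS2, MARS2, RARS2 and WARS2) had fitted differences between -0.39 for CARS2 and 0.50 for IARS2.

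By catalytic class, the fold shared by each group of synthetases, the 2 mitochondrial genes that rose and the cytosolic gene that fell are class I, and PARS2 is class II. The median fitted difference of class I members was -0.32 for 10 cytosolic and 0.36 for 8 mitochondrial genes, and that of class II members -0.12 for 9 and -0.27 for 7. EPRS1, which holds both classes, was counted in class I.

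For 12 amino acids 1 cytosolic and 1 mitochondrial gene of the same letter were both measured. In MKN45 the mitochondrial difference was above the cytosolic one in 10 of 12 pairs, the exceptions among these 12 being the arginyl and threonyl genes, with a median gap of 0.91. In HGC27 it was above in 6 of 12, with a median gap of 0.06. Phenylalanyl, glutamyl and prolyl genes do not pair 1 to 1 and were set side by side apart. In MKN45 EARS2 was 2.16 above EPRS1, while PARS2 at -1.47 was below EPRS1 at -1.18 and FARS2 at -0.24 was below FARSA at 0.38 and FARSB at 0.56. In HGC27 EARS2 was above EPRS1 and FARS2 above FARSB, and PARS2 was below EPRS1 and FARS2 below FARSA. Among the 12 pairs the tryptophanyl pair had the widest gap in MKN45, 2.13. WARS1 was 16.1 times WARS2 in vehicle and 5.6 times in treated HGC27, and 15.7 and 3.22 times in MKN45, while WARS2 itself was at 6.61 and 6.98 FPKM and at 3.58 and 4.89 FPKM. The leucyl pair had the widest gap of the 12 in HGC27, 1.64, with LARS1 at 12.2 and 2.82 times LARS2 in HGC27 and 3.76 and 1.64 times in MKN45. LARS1 was at 19.6 FPKM in vehicle and 15.0 FPKM in treated HGC27, and at 15.5 and 15.2 FPKM in MKN45, so most of the leucyl gap in MKN45 lay in LARS2. For alanine the MKN45 ratio went from 6.32 to 2.01, with AARS2 at 8.51 and 9.51 FPKM. Such ratios rest on the deposited lengths, while their change between libraries does not.

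**Figure D3:**
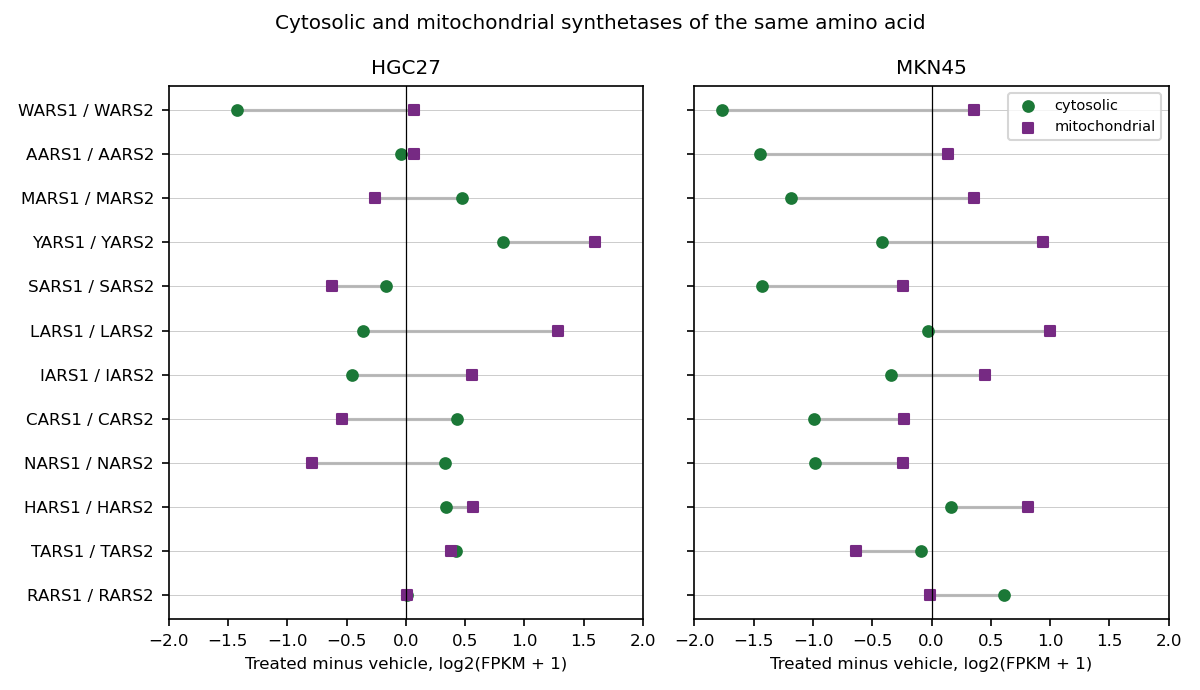
Treated minus vehicle difference, log2(FPKM + 1), of the cytosolic and mitochondrial gene for each of 12 amino acids, with 1 panel per line. In MKN45 10 of 12 mitochondrial points lie to the right of their cytosolic partner, and in HGC27 6 of 12.

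Summed over members, the cytosolic set came to 1011 and 1028 FPKM in vehicle and treated HGC27 and to 880 and 647 FPKM in MKN45. The mitochondrial set came to 109 and 155 FPKM and to 136 and 180 FPKM. At the deposited scaling the cytosolic sum was thus lower in treated MKN45 and nearly level in HGC27. The mitochondrial sum was higher in both treated libraries. In recovered reads the cytosolic set held 217524 of 26674737 in vehicle and 151195 of 24822517 in treated HGC27, a lower share. In MKN45 it held 197901 of 36321186 and 88522 of 27545152, again a lower share. The mitochondrial set held 16630 and 15912 reads in HGC27 and 25377 and 20996 in MKN45, a slightly higher share after treatment in both. The level cytosolic sum in HGC27 thus depends on the scaling. All FPKM sums are led by the most abundant genes.

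The scaffold proteins did not pass the test (0 of 3 in limma, 1 at an unadjusted p under 0.05 and 0 with limma-voom). AIMP1, which is also cut into a secreted cytokine, went from 7.55 to 14.5 FPKM with treatment in HGC27, and in MKN45 from 10.6 to 18.3 FPKM. Both treated AIMP1 libraries were above both vehicle libraries, with a fitted difference of 0.80 ± 0.28 (limma adjusted p = 0.103). AIMP2, the core scaffold of the complex, was at 69.0 FPKM in vehicle and 50.4 FPKM in treated HGC27, and at 18.0 and 20 FPKM in MKN45 (-0.15 ± 0.29, adjusted p = 0.766). EEF1E1, also called AIMP3, was at 39.6 and 37.4 FPKM and at 44.8 and 68.2 FPKM (0.26 ± 0.29, adjusted p = 0.592), and its fitted sign turned with quantile normalization (-0.19) and with library totals alone (-0.03). Taking the 7 synthetases of the complex among the members with the scaffolds, 0 of 10 passed. In MKN45 3 of those 10, EPRS1, MARS1 and QARS1, were at least 2-fold lower, while KARS1, RARS1 and EEF1E1 were at 0.58, 0.61 and 0.60. Differences of members of the complex were thus of both signs in MKN45.

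Differences of opposite sign in the 2 lines were about as frequent among members as among all genes, 11 of 37 (29.7%) against 27.1% of the 10071 genes measured in both. Of the cytosolic genes 6 of 19 had them, 5 of which were higher in treated HGC27 and lower in treated MKN45. MARS1, the methionyl enzyme, had the widest gap. It was at 33.6 FPKM in vehicle and 46.9 FPKM in treated HGC27, and at 53.0 and 22.7 FPKM in MKN45. CARS1, the cysteinyl enzyme, was at 9.30 and 12.8 FPKM and at 4.01 and 1.52 FPKM. In both genes treatment placed the HGC27 library above and the MKN45 library below its own vehicle. NARS1, the asparaginyl enzyme, was at 87.3 and 110 FPKM and at 104 and 52.0 FPKM. YARS1, the tyrosyl enzyme, was at 27.2 FPKM in vehicle and 48.9 FPKM in treated HGC27, and at 38.4 and 28.4 FPKM in MKN45. With 4 libraries the difference between lines in response cannot be tested.

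**Figure D4:**
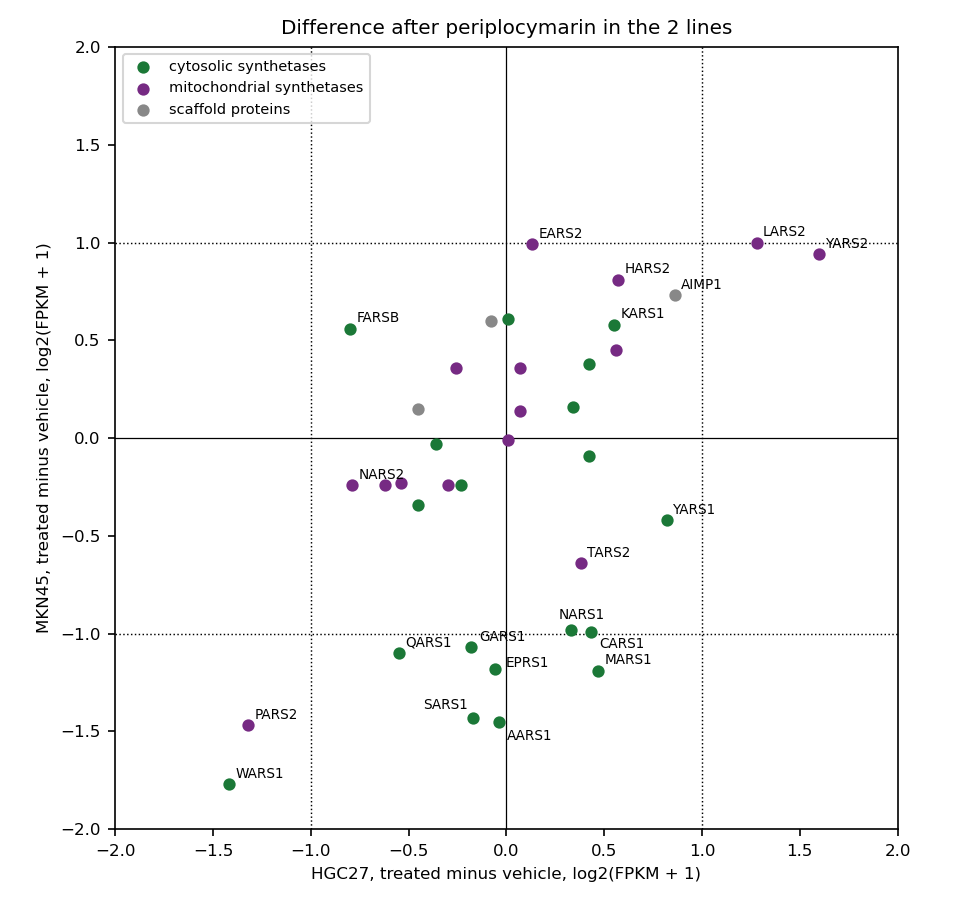
Treated minus vehicle difference, log2(FPKM + 1), in HGC27 on the horizontal and MKN45 on the vertical axis, 1 point per member measured in both, with dotted lines at 1 and -1. Of 19 cytosolic points 7 lie below -1 on the MKN45 axis, and of these only WARS1 does so on the HGC27 axis. WARS1 and PARS2 lie at the lower left, and LARS2 and YARS2 at the upper right.

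The lines also differed in level over both treatments. The vehicle and treated library of a line are its 2 units here, so a fall in treated MKN45 alone adds to the difference. GARS1, for example, was at 68.3 FPKM in HGC27 and 45.6 FPKM in MKN45 with vehicle, and at 60.0 and 21.2 FPKM with treatment. Higher in HGC27 were 7 of 19 cytosolic members and AIMP2, and 0 cytosolic members were higher in MKN45, against 16.4% and 19.6% of all genes tested. The 7 were CARS1 (HGC27 minus MKN45 1.75 ± 0.36), SARS1 (1.59 ± 0.34), IARS1 (1.47 ± 0.27), EPRS1 (1.43 ± 0.32), FARSA (1.22 ± 0.27), WARS1 (1.08 ± 0.28) and GARS1 (1.02 ± 0.31), with limma adjusted p between 0.00255 for IARS1 and 0.0271 for GARS1. IARS1, the isoleucyl enzyme, was at 50.6 FPKM in vehicle and 36.9 FPKM in treated HGC27, and at 17.0 and 13.2 FPKM in MKN45, so the lines did not overlap. For AIMP2 the difference was 1.59 ± 0.29 (limma adjusted p = 0.00218). Higher in MKN45 were 3 of 15 mitochondrial members, NARS2 (-1.27 ± 0.31), CARS2 (-1.08 ± 0.29) and LARS2 (-0.83 ± 0.29), with limma adjusted p of 0.0109, 0.0174 and 0.0489. CARS2, the cysteinyl enzyme, was at 2.62 FPKM in vehicle and 1.49 FPKM in treated HGC27, and at 5.89 and 4.87 FPKM in MKN45. The call for LARS2 was made in 2 of 6 alternatives, and that for CARS2 in 4 of 6.

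The other genes of the tRNA pathway were read from lists compiled from general knowledge. For the counts that follow, 3.49% of all genes tested rose and 3.29% fell. Of 13 tested genes that assist charging 1 rose and 0 fell. It was YRDC, which makes the threonylcarbamoyl base of tRNAs, from 14.9 to 31.6 FPKM and from 11.1 to 44.5 FPKM (1.47 ± 0.31, limma adjusted p = 0.031). Of 22 genes of tRNA maturation and export 1 rose and 2 fell. SSB, the La protein that binds new tRNA ends, rose by 1.13 ± 0.27 (adjusted p = 0.0415), while ELAC1, a tRNA 3′ processing nuclease, fell by 1.76 on the log2 scale ± 0.34 (0.0253) and RPP40, a subunit of RNase P, by 1.30 ± 0.33 (0.0486). Of 5 mitochondrial elongation factors GFM1, which moves the mitochondrial ribosome along, rose from 6.47 to 16.9 FPKM and from 9.54 to 27.0 FPKM (1.34 ± 0.28, adjusted p = 0.0305). All 5 had fitted differences above 0, as had 6675 of all 12374 genes tested. Of 7 cytosolic elongation factors 0 passed in limma, with a median of 0.18.

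Genes that supply amino acids or answer to ATF4 were the most changed of these lists. Of 28 tested 10 fell and 1 rose, where 3.29% of all genes tested fell and 3.49% rose. The median fitted difference of the list was -1.11. That list was known to have fallen in these libraries, so it is no independent evidence about the synthetases. In MKN45 21 of 27 were at least 2-fold lower (median -1.43), and in HGC27 9 of 27 (median -0.66). Of all genes measured 8.94% were 2-fold lower in MKN45 and 10.4% in HGC27. The largest falls that passed were those of TRIB3 (-3.37 ± 0.37), DDIT4 (-3.17 ± 0.38), CHAC1 (-2.61 ± 0.40) and PCK2 (-2.44 ± 0.32). SLC38A2 was the gene that rose (1.49 ± 0.31). Neither ASNS nor XPOT passed (limma adjusted p = 0.157 and 0.0553). ASNS, which makes asparagine, was at 150 FPKM in vehicle and 160 FPKM in treated HGC27, and at 98.9 and 18.5 FPKM in MKN45. XPOT, the nuclear exporter of tRNAs, was at 64.5 and 36.8 FPKM and at 84.8 and 34.3 FPKM. The mRNA of ATF4 itself was at 216 FPKM in vehicle and 180 FPKM in treated HGC27, and at 202 and 220 FPKM in MKN45. Its fitted difference was -0.07 ± 0.27 (limma adjusted p = 0.89), and its protein was not measured.

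In GRCh38 with the GENCODE 29 annotation, WARS1 lies at chr14:100333788-100376805 on the minus strand, PARS2 at chr1:54756898-54764514 on the minus strand, LARS2 at chr3:45388506-45549421 on the plus strand and YARS2 at chr12:32727490-32755902 on the minus strand. No strand setting is stated, so reads of overlapping genes cannot be told apart. PARS2, LARS2 and YARS2 have no exon overlap with another gene. WARS1 overlaps WDR25, which was at 3.45 and 1.79 FPKM and at 1.72 and 0.527 FPKM, well below WARS1. MARS1 overlaps DDIT3, a target of ATF4, at 47.6 FPKM in vehicle and 24.8 FPKM in treated HGC27, and at 23.4 and 9.21 FPKM in MKN45, and KARS1 overlaps TERF2IP, at 10.4 and 24.4 FPKM and at 11.6 and 25.1 FPKM. HARS1 and HARS2 overlap each other on opposite strands, and HARS2 also overlaps ZMAT2 on its own strand. AIMP2 overlaps EIF2AK1, at 46.3 FPKM in vehicle and 31.8 FPKM in treated HGC27, and at 37.6 and 25.7 FPKM in MKN45. AIMP1 overlaps TBCK, SARS2 overlaps MRPS12, and some members not named here also have overlaps. The part of overlapping genes in the values of members, and in the histidyl pair, was not tested.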

How the data were processed

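Poly(A) RNA libraries of the 4 groups, named from the sample titles, came as 1 table. From its values, the authors deposited FPKM. Per the submitters' processing notes, fastp 2.0, HISAT2 2.1.0 and the build hg38 were used. For the counter, annotation and strand setting the sources used here give no name. Reads per library were recovered from the steps between low values with GENCODE 29 or searched lengths (49.9% of 30457 genes were whole at the GENCODE 29 length, tolerance 0.0001 reads) and served for depth, counting error, the read filter below and limma-voom.

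The test was limma 3.58.1 in R 4.3.3 with a trend on log2(FPKM + 1), line as block, for genes with means of at least 1 FPKM and 10 recovered reads. A count test had been planned for a count table. Line pairs the libraries by design. Scripts were tested on simulated data. The members and lists were chosen with earlier results of these data known. Named in full were members that passed either test, the 3 highest and 3 lowest fitted of each compartment, the scaffolds, those 2-fold different in a line and the 2 widest gaps between lines in each compartment. Genes of other lists were named only if they passed, except ASNS, XPOT, ATF4 and overlapping genes, chosen after their values were seen. Alternatives were 3 other scalings, limma-voom, a pseudocount of 0.1, no filter, a floor of 10 FPKM and no line block.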

Additional observations from a re-analysis of the deposited data

Results flagged for a closer look

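In 9 members the difference after treatment went opposite ways in the 2 lines, each beyond counting error. That is 24.3% of 37 members, and 29.7% had opposite signs with counting error left aside, near the 27.1% of all genes measured in both lines. Each gap is the HGC27 minus the MKN45 difference on the log2(FPKM + 1) scale. Higher in treated HGC27 and lower in treated MKN45 were MARS1 (gap 1.66, from 0.47 and -1.19), CARS1 (1.42, from 0.43 and -0.99), NARS1 (1.31, from 0.33 and -0.98), YARS1 (1.24, from 0.82 and -0.42), TARS2 (1.02, from 0.38 and -0.64) and TARS1 (0.51, from 0.42 and -0.09). The reverse held for FARSB (gap -1.36, from -0.80 and 0.56), MARS2 (-0.62, from -0.26 and 0.36) and AIMP2 (-0.60, from -0.45 and 0.15). With 1 library per line and treatment these differences between lines were not tested.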

How the results depend on the processing

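With 1 library per group no library could be left out and depth limited low genes such as PARS2. No paired analysis beyond the line block was possible because the labels number no replicates. Without the line block (no replicate block) 0 genes passed the treatment test, 0 cytosolic members fell, and 0 mitochondrial members rose or fell, against 432 and 407 of all genes, 1, and 2 and 1 in limma. With no low-value filter the same counts were 0, with 0 cytosolic and 0 scaffold members higher in HGC27, 0 mitochondrial members higher in MKN45, and 440 and 647 of all genes higher in HGC27 and MKN45. The cause was not tested.

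With quantile normalization 4 cytosolic members fell, 1 mitochondrial member rose and 0 fell, and 224 of all genes rose. At least 2-fold lower in HGC27 were then 2 cytosolic, 0 mitochondrial and 1 scaffold member, 0 mitochondrial members were higher in MKN45, and 692 of all genes were higher in HGC27. FARSA turned to -0.08, RARS1 to -0.16 and EEF1E1 to -0.19, and the cytosolic medians moved to -0.55 in HGC27 and -0.76 in MKN45. With libraries rescaled to the same sum 660 of all genes rose, 1 mitochondrial member was higher in each line and 3158 of all genes in HGC27. In HGC27 2 mitochondrial members and 2062 of all genes were 2-fold lower, in MKN45 3 members and 1606 genes were higher. The HGC27 medians turned to -0.08 (mitochondrial) and -0.02 (all genes), and KARS1 between lines to 0.00.

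With library totals alone 6 cytosolic members fell, 1 mitochondrial member rose and 1167 of all genes fell. At least 2-fold lower in HGC27 were 2 cytosolic members and 1940 genes, 486 genes were higher there, and 0 mitochondrial members and 564 genes were higher in MKN45. EEF1E1 turned to -0.03, the mitochondrial medians to -0.23 in HGC27 and -0.06 in MKN45, and the all-gene medians to -0.18 and -0.12, from 0.11 and 0.07. With limma-voom 844 genes rose and 662 fell, and with a pseudocount of 0.1, 755 and 734. That pseudocount gave 2 mitochondrial members lower in HGC27 and 2 higher in MKN45, and 1847 and 1726 of all genes lower in HGC27 and MKN45.

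At a floor of 10 FPKM, which left 4 mitochondrial members in the fit, 3 cytosolic members fell, 1 mitochondrial member rose and 0 fell, and 1 scaffold rose (AIMP1). Of all genes 1049 rose and 199 fell, 786 were higher in HGC27 and 1051 in MKN45, and 0 mitochondrial members were higher in MKN45. At least 2-fold in HGC27 were 1 mitochondrial member higher and 0 lower and 150 genes lower. In MKN45 0 mitochondrial members were higher and 0 lower, 611 genes higher and 210 lower. WARS1 fell in 6 of 8 alternatives, YARS2 rose in 5 of 8, LARS2 rose in 4 of 7 and PARS2 fell in 4 of 7. With members at the GENCODE 29 exon length, an alternative added after seeing the data, 2 mitochondrial members were lower in HGC27 (PARS2 and NARS2) and 2 higher in MKN45 (LARS2 and EARS2), and the 12 pairs still gave 6 in HGC27 and 10 in MKN45.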
